A study of Mus musculus with 25 samples.

Results

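The genes of glycolysis and of the response to low oxygen were followed by name through the series. They number 39 of the 24984 genes in the count table, 24 of glucose uptake, glycolysis and pyruvate use and 15 of the hypoxia response, and all 39 were found by symbol. Levels are given as CPM, the counts of a gene scaled to a common library total by the TMM method over all 25 libraries. The study asked how the dose of oncogenic Ras shapes liver progenitor cells in culture and the tumours they form. It used BMEL cells, an untransformed line of bipotential progenitors from the embryonic liver of C57BL/6 x C3H mice, grown on collagen with insulin, Igf2 and Egf. BMEL WT cells carried an empty vector. RasLOW and RasHIGH cells carried human H-Ras G12V with a Venus or mCherry reporter and were sorted for weak or strong fluorescence, so that each is a population with a range of Ras levels. There were 3 cultures of each. Tumours grew after injection of Ras cells into the liver of athymic nude mice, which lack T cells but keep innate immune cells. From the liver tumour and the peritoneal tumour of each of 4 mice, reporter-positive cells (tumour cells) and reporter-negative cells (stroma) were sorted after enzymatic dissociation, giving 16 libraries. The labels do not say which Ras population was injected, so tumour cells were compared with the mean of the RasLOW and RasHIGH cultures. The study's methods call the sorted tumour cells Venus-positive. Its paired liver and peritoneal tumours came from RasHIGH cells with Venus or RasLOW cells with mCherry, though RasLOW cells with Venus were also made. Counts against the RasHIGH cultures alone are therefore given too.

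Glycolysis splits glucose into pyruvate, which is either passed to the mitochondria or reduced to lactate and exported. Oxygen tension acts on this pathway through the hypoxia-inducible factors: prolyl hydroxylases (Egln genes) use oxygen to mark the alpha subunits (Hif1a, Epas1) for destruction, and when oxygen is scarce the subunits persist and activate genes of glucose uptake, glycolysis, pH control, mitophagy and collagen modification. Hif1a is regulated mainly at the level of its protein, so that its mRNA is a poor gauge of its activity. Rapidly growing tumours often contain poorly supplied regions, and oncogenic Ras is itself known to raise glycolytic gene expression.

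Total counts per library ran from 20818989 to 51241336, so that 3 counts corresponded to 0.0585 to 0.144 CPM. That limit covers counting error only. The summed level of 6 epithelial genes (Krt8, Krt18, Krt19, Epcam, Cdh1, Sox9) was 7065 to 11259 CPM in cultures and tumour cells and 698 to 1621 CPM in stroma, while 6 leukocyte genes summed to 4450 to 7308 CPM in stroma and 11.6 to 24.6 CPM in 7 of the 8 tumour cell libraries. The peritoneal tumour cell library of mouse 1 stood apart with 168 CPM of leukocyte genes, 1233 CPM of fibroblast genes (174 to 266 CPM in the other 3 mice) and 54.3 CPM of neutrophil genes. Endothelial genes (Pecam1, Cdh5, Kdr, Tek, Vwf and Emcn) summed to 0.259 to 11.1 CPM in cultures, 54.4 to 236 CPM in all 8 tumour cell libraries and 376 to 865 CPM in stroma. Macrophage genes summed to 19.7 to 57.2 CPM in cultures and 57.6 to 188 CPM in tumour cells, and fibroblast genes to 1.03 to 10.03 CPM in cultures and 32.3 to 47.2 CPM in liver tumour cells. The part of these other cell types in the differences between cultures and tumour cells was not tested. Genes induced by tissue dissociation summed to 366 to 1898 CPM in cultures, 3479 to 6081 CPM in tumour cells and 6874 to 13678 CPM in stroma. The Ras cultures also ran on another sequencing lane than all tumour libraries. Culture against tumour therefore cannot be told apart from dissociation, sorting or lane. In bulk samples, fewer cells of a type and less RNA per cell cannot be told apart either.

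The members were strongly higher in tumour cells than in cultured Ras cells at both sites. Of the 35 members with enough counts to be tested, 30 were higher and 1 lower in liver tumour cells, by edgeR's quasi-likelihood test at an adjusted p under 0.05 over all genes tested. In this comparison 53.4% of all 13063 genes passed, 26.7% upward and 26.7% downward. In peritoneal tumour cells 29 of 35 members were higher and 0 lower, where 48.8% of all genes passed and 24.6% passed upward. The 29 members called higher in the peritoneum were all called higher in the liver too. Slc16a3 and Car9 are counted among them but entered both tests only through their counts in tumour cells. Their calls therefore add nothing to their levels, given below. Ldha was called in the liver only, and that difference between the sites did not pass (adjusted p = 0.363). The median log2 fold change of the members was 1.54 in the liver and 1.32 in the peritoneum, against −0.02 over all genes tested in either comparison. It was 1.501 and 1.31 without Slc16a3, whose culture libraries held 0 to 3 counts. The hypoxia response genes had medians of 2.30 and 1.91, and the glycolysis genes 1.003 and 0.82. Slc2a3, Ldhb, Car12 and Adm had too few counts to be tested. Leaving out any 1 library gave 29 to 33 members called in the liver and 27 to 30 in the peritoneum, and 27 without the peritoneal tumour library of mouse 1. Against the RasHIGH cultures alone, 29 were higher and 1 lower in the liver, and 26 and 1 in the peritoneum. The shares of all genes called in those fits are not given, and the shares above belong to the mean of both cultures. Both comparisons share the 6 Ras cultures, so their agreement is not independent.

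**Figure D1:**
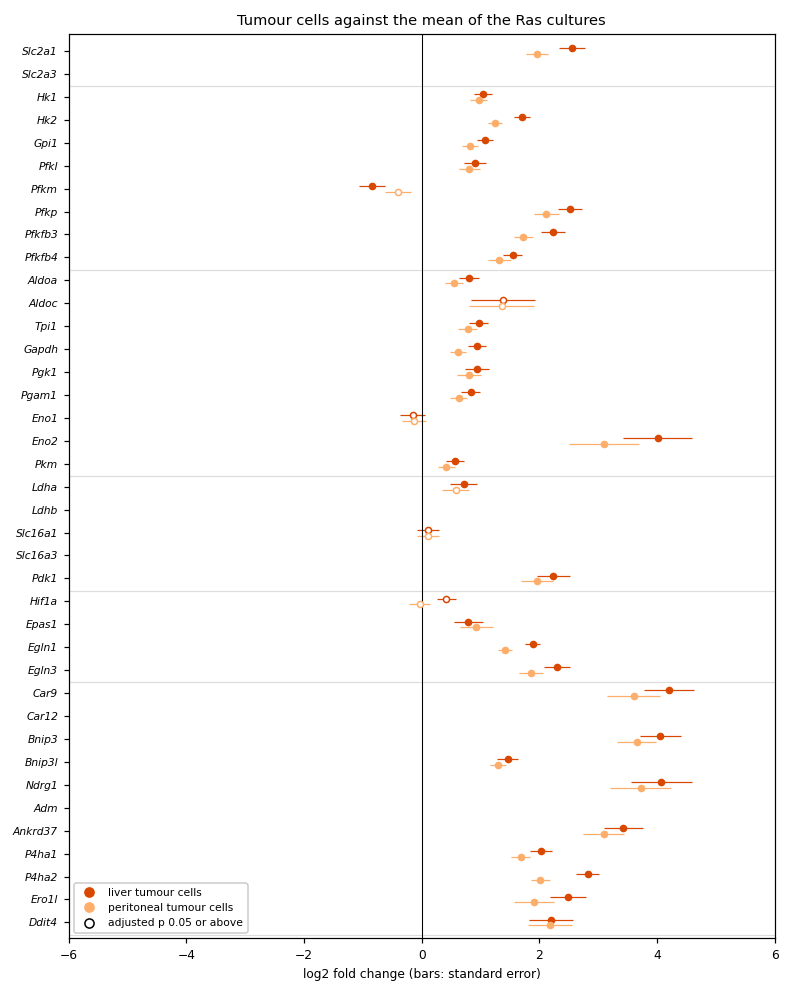
Log2 fold change of each member in liver (dark) and peritoneal (light) tumour cells against the mean of the RasLOW and RasHIGH cultures, with bars for the standard error and open symbols for an adjusted p of 0.05 or above; grey lines part the roles. Rows are empty where a member was not tested or a group averaged under 0.144 CPM. Most points lie right of 0, those of the hypoxia response genes in the lower rows farthest, while Eno1 and Slc16a1 sit near 0 and Pfkm is left of it.

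Hypoxia response genes were 4 of the 5 members with the highest rise in tumour cells, among members whose cultures averaged above the limit of 3 counts, which leaves out Slc16a3. Bnip3, which drives mitophagy when oxygen is low, stood at 4.61, 5.85 and 5.29 CPM in BMEL WT, 27.6, 21.8 and 10.4 CPM in RasLOW and 65.8, 35.1 and 19.7 CPM in RasHIGH cultures. It reached 380.1, 533, 626 and 336 CPM in the 4 liver tumour cell libraries and 445, 320.5, 330.3 and 303 CPM in the peritoneal ones. Every tumour library exceeded every culture library, with log2 fold changes of 4.05 ± 0.35 (SE, adjusted p = 9.98e-06) and 3.65 ± 0.33 (adjusted p = 3.56e-05). Ndrg1, a stress-responsive gene linked to cell differentiation, was at 61.0, 123 and 32.0 CPM in RasLOW and 485, 111 and 79.2 CPM in RasHIGH cultures. Tumour cells held 1614, 1971, 3070.0 and 1857 CPM in the liver and 2329, 1475, 1306 and 1468 CPM in the peritoneum. The groups did not overlap although the first RasHIGH culture was far above the other cultures, and the changes were 4.07 ± 0.52 and 3.72 ± 0.52. Ankrd37, an ankyrin repeat gene known as a target of hypoxia-inducible factor 1, was low in culture at 1.15, 0.459 and 0.446 CPM in RasLOW and 2.27, 0.818 and 0.902 CPM in RasHIGH cells. It stood at 9.42, 11.2, 10.5 and 10.0 CPM in liver and 9.02, 8.48, 7.28 and 7.53 CPM in peritoneal tumour cells, again without overlap (3.43 ± 0.33 and 3.09 ± 0.35). Car9, a membrane carbonic anhydrase that helps export acid, held 0.108, 0.656 and 0.324 CPM in RasLOW and 0.265, 0.560 and 0.180 CPM in RasHIGH cultures. Its tumour levels were 4.68, 5.65, 8.39 and 7.46 CPM in the liver and 4.59, 4.62, 4.80 and 2.99 CPM in the peritoneum. The fitted changes were 4.20 ± 0.42 and 3.60 ± 0.46 on a low level, with 3 to 20 counts in each Ras culture. Car9 entered these tests only through its counts in tumour cells, so its calls add nothing to the levels given here. Stroma held more Car9 in the peritoneum, at 15.1, 14.6, 5.72 and 14.3 CPM, than tumour cells did.

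The starting regions of these genes were looked at for the core letters that hypoxia-inducible factors bind. The 5 members with the highest mean change over both sites and a culture level above the limit of 3 counts were Bnip3, Ndrg1, Car9, Eno2 and Ankrd37. RefSeq promoters (build GRCm38.p6) were at hand for 35 of the 39 members, and for all of these 5 but Ndrg1. The letters ACGTG and GCGTG were searched on both strands (also read as CACGT and CACGC) in the 250 bases before each start, and may overlap each other. The sequences of the 4 are shown 5′ to 3′ on the strand of the gene, in lower case with the matches in capitals, so that the number and place of matches can be read beside the changes above.
Bnip3, minus strand of chr7:138909507-138909756: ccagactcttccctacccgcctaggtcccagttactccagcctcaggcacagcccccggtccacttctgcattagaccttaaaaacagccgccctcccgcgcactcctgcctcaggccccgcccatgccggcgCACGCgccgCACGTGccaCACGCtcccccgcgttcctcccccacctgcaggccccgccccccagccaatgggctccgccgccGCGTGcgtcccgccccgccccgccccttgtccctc
Ankrd37, minus strand of chr8:45999851-46000100: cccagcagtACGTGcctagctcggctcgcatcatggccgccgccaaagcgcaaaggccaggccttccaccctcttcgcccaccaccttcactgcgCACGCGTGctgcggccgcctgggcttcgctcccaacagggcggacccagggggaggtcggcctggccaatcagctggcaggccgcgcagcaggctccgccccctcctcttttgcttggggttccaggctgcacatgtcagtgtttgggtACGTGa
Car9, plus strand of chr4:43506776-43507025: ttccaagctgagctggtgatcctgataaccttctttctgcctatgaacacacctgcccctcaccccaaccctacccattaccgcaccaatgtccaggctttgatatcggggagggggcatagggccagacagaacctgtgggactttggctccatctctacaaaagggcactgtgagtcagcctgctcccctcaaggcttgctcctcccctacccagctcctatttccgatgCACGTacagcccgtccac
Eno2, minus strand of chr6:124769674-124769923: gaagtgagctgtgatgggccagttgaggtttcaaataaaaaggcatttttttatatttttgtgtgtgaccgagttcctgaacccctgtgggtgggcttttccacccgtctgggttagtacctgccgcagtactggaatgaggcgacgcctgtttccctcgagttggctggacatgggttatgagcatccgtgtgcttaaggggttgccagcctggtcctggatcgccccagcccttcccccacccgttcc
The Bnip3 window holds 2 matches of the first motif, which share letters in one palindrome, and 3 of the second. Ankrd37 holds 2 of each, and those of the second overlap in a palindrome. Car9 holds 1 match of the first motif and its first letter lies 18 bases before the start. Eno2 holds none in this window. At least 1 of the motifs occurred in 39 of the 48 member promoters (81.2%), against 38.6% of all 32851 promoters. The first motif alone was in 50.0% of member promoters and 16.6% of all promoters. Among the 29 members higher at both sites, 25 of the 32 promoters found (78.1%) held a motif, and among the promoters of the other members 14 of 16 (87.5%). These are counts of letters, given as a description.

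The hypoxia genes of protein folding and collagen modification rose by smaller steps. Ero1l, the endoplasmic reticulum oxidase that forms disulfide bonds, was at 111, 174 and 110.1 CPM in RasLOW and 403, 131 and 133 CPM in RasHIGH cultures. Liver tumour cells held 792, 1056, 1179 and 784 CPM and peritoneal tumour cells 908, 688, 484 and 446 CPM, with changes of 2.48 ± 0.31 and 1.91 ± 0.34 and no overlap. The first RasHIGH culture, at 403 CPM, came close to the lowest peritoneal library. P4ha2, a collagen prolyl hydroxylase, was at 23.4, 15.8 and 22.8 CPM in RasLOW and 19.97, 18.1 and 11.4 CPM in RasHIGH cultures. Its tumour levels of 93.2, 153, 148 and 127 CPM in the liver and 74.6, 79.4, 67.1 and 73.8 CPM in the peritoneum lay far above these (2.82 ± 0.19 and 2.01 ± 0.17). Its paralogue P4ha1 rose from 115, 82.8 and 79.6 CPM and 142, 92.3 and 79.0 CPM in the 2 Ras groups to 313, 487, 462 and 337 CPM and 353, 322, 299 and 266 CPM at the 2 sites. Its changes were 2.03 ± 0.19 and 1.68 ± 0.17. Ddit4, which restrains mTORC1 under stress, was uneven in culture, at 19.2, 58.5 and 18.3 CPM in RasLOW and 94.3, 52.9 and 27.8 CPM in RasHIGH cells. Tumour cells held 158, 200.2, 243 and 193 CPM and 216, 164, 223 and 168 CPM without overlap (2.20 ± 0.37 and 2.18 ± 0.38). Bnip3l, a mitophagy receptor related to Bnip3, rose from 91.6, 108 and 75.1 CPM and 117, 102 and 97.4 CPM to 208, 291, 375 and 207 CPM and 303, 229, 212 and 209.9 CPM (1.46 ± 0.17 and 1.30 ± 0.14). It started from a high level and moved least of these genes.

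The oxygen sensors rose while the mRNA of Hif1a did not pass. Egln3, a prolyl hydroxylase that is itself a target of the pathway, was at 38.6, 47.6 and 51.1 CPM in BMEL WT, 115, 85.2 and 113 CPM in RasLOW and 182, 175 and 81.1 CPM in RasHIGH cultures. Liver tumour cells held 484, 619.9, 764 and 567 CPM and peritoneal tumour cells 496, 463, 397 and 408 CPM, all above every culture (2.30 ± 0.22 and 1.85 ± 0.21). Egln1, the main oxygen sensor of most cells, went from 95.4, 67.3 and 88.5 CPM and 90.5, 95.2 and 75.2 CPM in the Ras cultures to 256, 354, 349 and 301 CPM and 255, 209.6, 214 and 221 CPM in the tumours. Its changes of 1.88 ± 0.13 and 1.41 ± 0.12 came with tight groups and no overlap. Hif1a was at 331, 319.9 and 264 CPM in RasLOW, 854, 566 and 411 CPM in RasHIGH, 525, 599.7, 631 and 547 CPM in liver and 466, 439.8, 402 and 357 CPM in peritoneal tumour cells. Its groups overlapped, and neither change passed (log2 fold change 0.42 ± 0.17, adjusted p = 0.0565, and −0.03 ± 0.18, adjusted p = 0.892). Against RasLOW cultures alone, peritoneal Hif1a was called higher, by 0.46 (adjusted p = 0.023). Epas1, the alpha subunit of hypoxia-inducible factor 2, was called higher at both sites (0.79 ± 0.24 and 0.92 ± 0.28), but its tumour libraries of 15.9 to 28.7 CPM overlapped the RasHIGH cultures at 32.6, 18.7 and 10.5 CPM. Without the peritoneal library of mouse 1, Epas1 in the peritoneum missed the threshold (adjusted p = 0.0615).

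**Figure D2:**
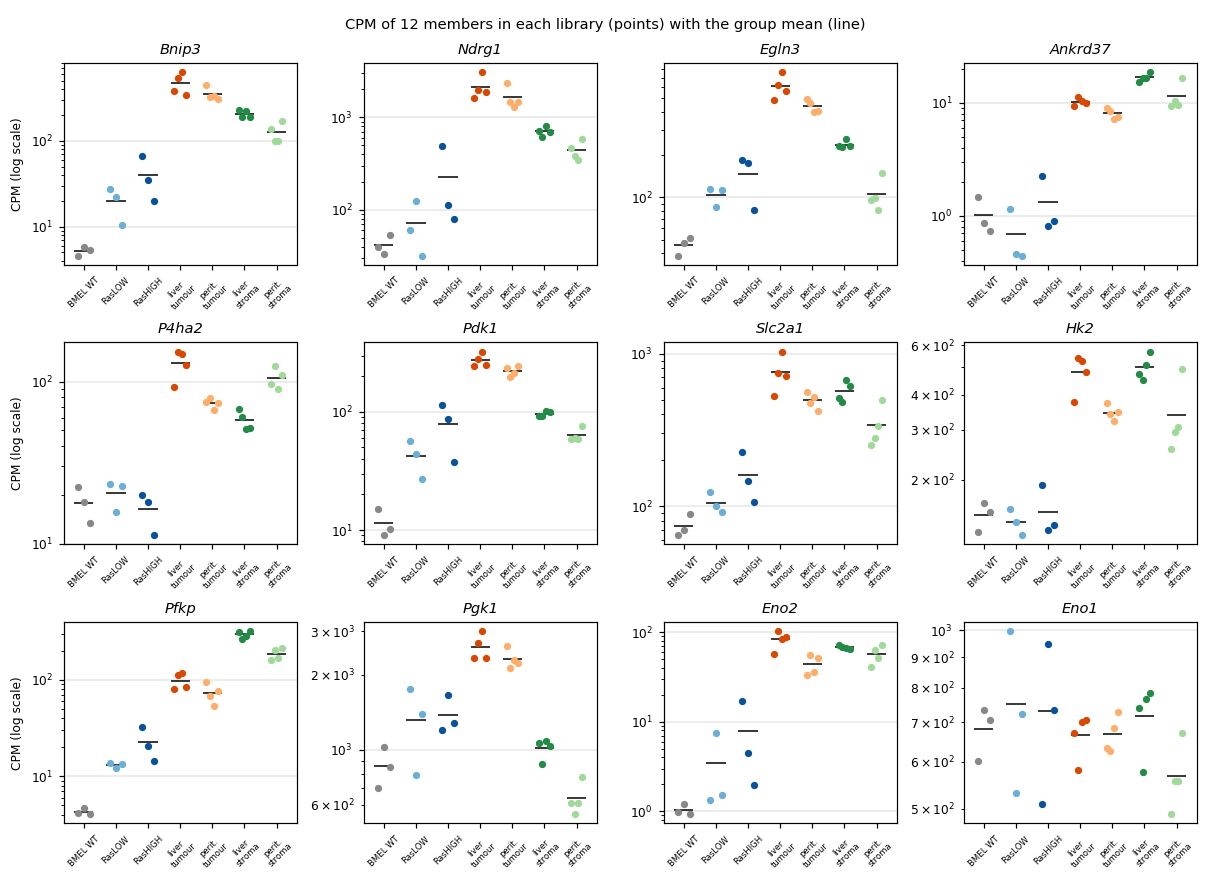
CPM on a log scale for 12 members in each of the 25 libraries, grouped along the axis as BMEL WT, RasLOW, RasHIGH, liver tumour cells, peritoneal tumour cells, liver stroma and peritoneal stroma, with a line at the group mean. Bnip3 climbs from 4.61 to 5.85 CPM in BMEL WT to 303 CPM and more in tumour cells, Pfkp is highest in stroma, and Eno1 stays between 489.6 and 997 CPM throughout.

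Glucose uptake and the first steps of glycolysis rose at both sites. Slc2a1, the main glucose transporter of these cells, was at 123, 100 and 91.6 CPM in RasLOW and 226, 146 and 106 CPM in RasHIGH cultures. It was at 531, 749.7, 1031 and 719 CPM in liver tumour cells and 563, 478, 524 and 419 CPM in peritoneal ones, without overlap (2.55 ± 0.22 and 1.96 ± 0.19). Hk2, the inducible hexokinase that traps glucose in the cell, rose from 157, 142 and 127 CPM and 192, 132 and 138 CPM in the Ras cultures to 376, 538, 527 and 481 CPM and 373, 342, 323 and 346 CPM (1.70 ± 0.13 and 1.24 ± 0.11). Hk1, the housekeeping hexokinase, rose from 295, 295 and 218 CPM and 436, 336 and 256 CPM to 544, 662, 693 and 596 CPM and 619, 582, 597 and 548 CPM (1.04 ± 0.15 and 0.97 ± 0.14). So both hexokinases were higher in every tumour library than in any Ras culture. Gpi1, which isomerizes glucose 6-phosphate, went from 579, 425 and 467 CPM and 665, 621 and 447 CPM to 945, 1158, 1225 and 1145 CPM and 1039.6, 892, 844 and 954 CPM (1.07 ± 0.14 and 0.83 ± 0.13).

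The 3 phosphofructokinase genes, which commit sugar to glycolysis, did not move alike. Pfkp, the platelet form, was at 4.19, 4.72 and 4.03 CPM in BMEL WT, 13.7, 12.2 and 13.5 CPM in RasLOW and 32.4, 20.6 and 14.5 CPM in RasHIGH cultures. Tumour cells held 80.0, 112, 118 and 84.2 CPM in the liver and 95.2, 67.9, 54.2 and 77.4 CPM in the peritoneum (2.52 ± 0.20 and 2.12 ± 0.21), all above every culture. Pfkl, the liver form, rose less (0.90 ± 0.18 and 0.81 ± 0.18). Pfkm, the muscle form, was the only member called lower, in liver tumour cells at 42.0, 46.7, 54.6 and 47.8 CPM against 49.9, 103 and 55.8 CPM in RasLOW and 144, 94.4 and 79.7 CPM in RasHIGH cultures. That change of −0.85 ± 0.22 (adjusted p = 0.00892) rested on overlapping groups, since RasLOW replicates 1 and 3 lay within or near the tumour range. The change in the peritoneum did not pass (−0.40 ± 0.22, adjusted p = 0.157). Per exon length (RPKM), Pfkl made up a median of 81.8% of the phosphofructokinase level in liver tumour cells and Pfkp 7.3%. Pfkfb3 and Pfkfb4 make and remove fructose 2,6-bisphosphate, the activator of phosphofructokinase. Pfkfb3 was at 9.60, 6.99 and 10.4 CPM in RasLOW, 5.72, 6.98 and 7.17 CPM in RasHIGH, 24.1, 32.6, 49.7 and 38.9 CPM in liver and 31.2, 22.8, 24.2 and 22.7 CPM in peritoneal tumour cells, with no overlap (2.23 ± 0.20 and 1.72 ± 0.16). Pfkfb4 went from 5.25, 4.49 and 3.89 CPM and 7.50, 9.04 and 9.38 CPM to 15.3, 19.7, 15.99 and 22.2 CPM and 10.4, 15.7, 14.2 and 21.6 CPM (1.54 ± 0.16 and 1.32 ± 0.20), with no overlap but a small gap in the peritoneum.

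Most enzymes of lower glycolysis rose by smaller steps. Of 9 genes from Aldoa to Pkm, 7 were called higher at each site and 0 lower. Aldoa, Tpi1, Gapdh, Pgk1, Pgam1 and Pkm changed by 0.56 to 0.97 in the liver and 0.42 to 0.80 in the peritoneum on the log2 scale. Pkm, pyruvate kinase, was the smallest and missed the threshold in the peritoneum without the library of mouse 1 (adjusted p = 0.0595). Pgk1, the first ATP-making enzyme of the pathway, was at 1761, 792 and 1389.6 CPM in RasLOW, 1196, 1653 and 1276 CPM in RasHIGH, 2342, 2693, 3001 and 2339.7 CPM in liver and 2602, 2135, 2291 and 2238 CPM in peritoneal tumour cells. Many of these genes have processed pseudogenes that can share reads with them, so their levels carry that uncertainty.

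Of the enolases, only Eno2 passed. Eno2, the neuronal enolase, was almost silent in BMEL WT at 0.977, 1.21 and 0.925 CPM and uneven in the Ras cultures at 1.33, 7.41 and 1.54 CPM in RasLOW and 16.9, 4.52 and 1.98 CPM in RasHIGH. It stood at 57.6, 103, 83.8 and 88.5 CPM in liver and 33.2, 55.1, 35.8 and 51.3 CPM in peritoneal tumour cells, above every culture (4.01 ± 0.59 and 3.10 ± 0.59). Eno1, the common enolase, was at 997, 533 and 723 CPM in RasLOW, 509.7, 949 and 735 CPM in RasHIGH, 672, 582, 701 and 707 CPM in liver and 633, 625, 684 and 728 CPM in peritoneal tumour cells. The groups overlapped and the changes of −0.16 ± 0.21 (adjusted p = 0.538) and −0.14 ± 0.20 (adjusted p = 0.596) did not pass. Eno1b, a near-identical copy that can share its reads, ran from 89.8 to 208 CPM over the culture and tumour cell libraries. Per exon length, Eno2 was a median of 0.2% of both enolases in RasLOW and 0.5% in RasHIGH cultures, 12.3% in liver and 6.6% in peritoneal tumour cells. Aldoc, the brain aldolase, was not called at either site (1.38 ± 0.54, adjusted p = 0.0519, and 1.36 ± 0.56, adjusted p = 0.0653), with RasHIGH cultures at 33.7, 9.13 and 4.19 CPM straddling the tumour range of 17.0 to 28.0 CPM.

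At the end of the pathway, Pdk1 rose at both sites and Ldha in the liver. Pdk1, the kinase that turns off pyruvate dehydrogenase, was at 15.0, 9.09 and 10.2 CPM in BMEL WT, 57.1, 43.8 and 27.0 CPM in RasLOW and 114, 87.2 and 37.4 CPM in RasHIGH cultures. It was at 243, 279, 324 and 249.7 CPM in liver and 235, 196, 212 and 246 CPM in peritoneal tumour cells, higher in each than in any culture (2.24 ± 0.27 and 1.95 ± 0.27). Ldha, the main lactate dehydrogenase, changed by 0.72 ± 0.23 in the liver (adjusted p = 0.0229) and by 0.58 ± 0.23 in the peritoneum, which did not pass (adjusted p = 0.0563). Its cultures were uneven, at 1534, 681 and 1014 CPM in RasLOW and 924, 1675 and 1052 CPM in RasHIGH. Slc16a1, the lactate and pyruvate transporter of these cells, did not pass at either site (0.11 ± 0.19 and 0.11 ± 0.19, adjusted p = 0.652 and 0.648). Slc16a3, the lactate exporter of highly glycolytic cells, was called higher at both sites, yet tumour cells held only 0.867, 1.38, 1.39 and 1.86 CPM and 7.21, 1.52, 1.31 and 0.812 CPM against 519.6, 358, 488 and 446 CPM in liver stroma, and no fold is given.

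In culture, fewer members passed between Ras and BMEL WT cells. RasLOW cells had 6 of 36 tested members higher and 1 lower than BMEL WT, where 5.96% of all 12307 genes passed, 1.92% upward. RasHIGH cells had 16 higher and 3 lower, where 22.6% of all genes passed and 10.9% passed upward. The 6 genes higher in RasLOW (Pfkp, Pdk1, Hif1a, Egln3, Bnip3, Ero1l) were also called higher in RasHIGH, and both comparisons use the same 3 BMEL WT cultures. The median change was 0.32 in RasLOW and 0.55 in RasHIGH (0.61 for members averaging over 0.144 CPM in both groups), against 0.01 and −0.02 over all genes. The counts depended on single libraries. Leaving out 1 library gave 1 to 14 members in RasLOW, with 2, 1 and 1 without BMEL WT replicates 1, 2 and 3, 3 without RasLOW replicate 1 or 3, and 14 without RasLOW replicate 2. In RasHIGH the range was 9 to 21, with 10, 9 and 12 without BMEL WT replicates 1, 2 and 3. BMEL WT replicates 1 and 2 ran on another lane than the other 7 cultures, and with lane 4 alone, which leaves 1 BMEL WT library, 0 members passed in either comparison. There the lone BMEL WT library is assumed to vary like the Ras cultures, and the fold changes stayed positive, at 2.02 in RasLOW and 2.92 in RasHIGH for Pdk1, 1.87 and 2.87 for Bnip3.

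**Figure D3:**
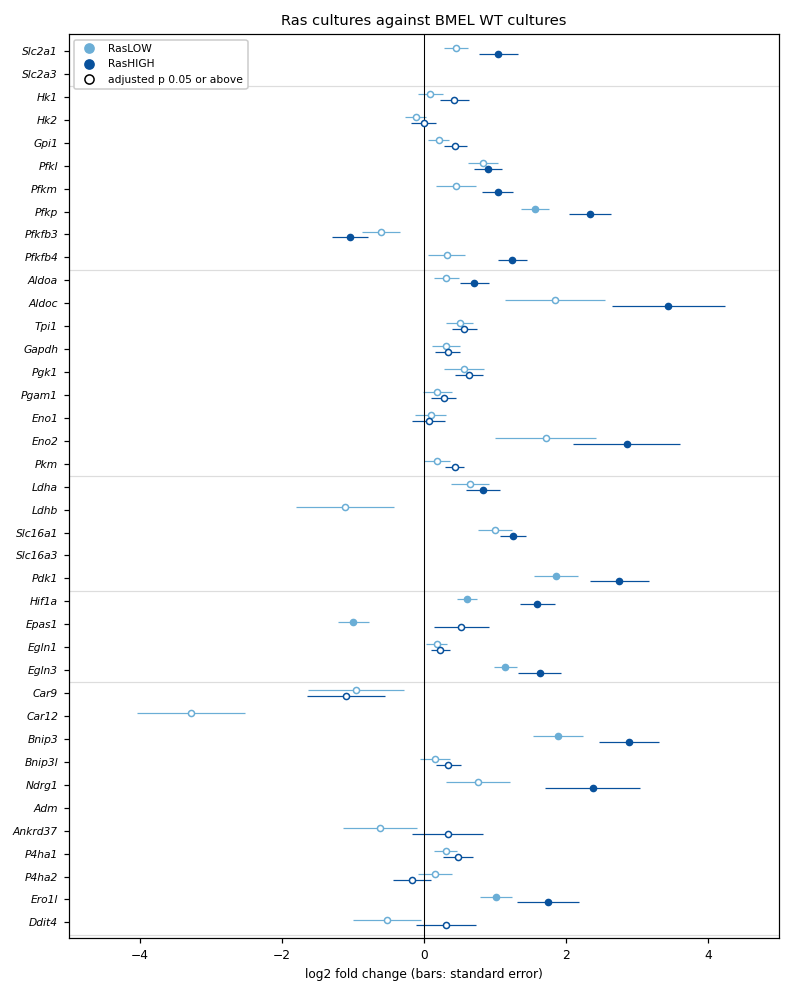
Log2 fold change of each member in RasLOW (light) and RasHIGH (dark) cultures against BMEL WT, with bars for the standard error and open symbols for an adjusted p of 0.05 or above. Rows are empty where a member was not tested, and a point is left out where a group averaged under 0.144 CPM. Bnip3, Pdk1, Pfkp, Egln3, Ero1l and Hif1a are filled in both groups, and Aldoc in RasHIGH lies farthest right at 3.44.

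Pdk1 changed by 1.86 ± 0.31 in RasLOW (adjusted p = 0.0198) and 2.76 ± 0.42 in RasHIGH cells (adjusted p = 0.00464), and its Ras cultures all exceeded the 9.09 to 15.0 CPM of BMEL WT. Bnip3 changed by 1.89 ± 0.35 and 2.89 ± 0.42, and Pfkp by 1.57 ± 0.20 and 2.34 ± 0.30, both again without overlap with BMEL WT. Egln3 changed by 1.15 ± 0.16 and 1.63 ± 0.30, from the levels given above. Ero1l, at 74.3, 57.8 and 59.5 CPM in BMEL WT, changed by 1.02 ± 0.23 and 1.75 ± 0.44. Hif1a was at 194, 188 and 205 CPM in BMEL WT and changed by 0.61 ± 0.14 (adjusted p = 0.0488) and 1.60 ± 0.25 (adjusted p = 0.00509), so that its mRNA was higher in all 6 Ras cultures than in any BMEL WT culture. Epas1 went the other way in RasLOW cells (−0.99 ± 0.22), at 6.94, 7.18 and 7.25 CPM against 13.0, 11.5 and 17.1 CPM, and was not called in RasHIGH cells.

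Other members were called against BMEL WT in RasHIGH cells but not in RasLOW cells. Aldoc, at 1.99, 0.758 and 1.41 CPM in BMEL WT and 2.77, 10.3 and 2.03 CPM in RasLOW, changed by 3.44 ± 0.80 in RasHIGH (adjusted p = 0.022). Eno2 changed by 2.86 ± 0.75 and Ndrg1, at 39.3, 32.9 and 52.9 CPM in BMEL WT, by 2.38 ± 0.66. In each of these genes the first RasHIGH culture was more than 3 times the next, and the groups still did not overlap BMEL WT. Slc2a1, at 64.9, 69.8 and 89.0 CPM in BMEL WT, changed by 1.05 ± 0.27, Slc16a1, at 68.8, 85.1 and 83.5 CPM in BMEL WT and 157, 228 and 197 CPM in RasHIGH, by 1.26 ± 0.18, and Pfkfb4, at 3.18, 3.68 and 3.77 CPM in BMEL WT, by 1.25 ± 0.21. Pfkm, at 49.4, 48.3 and 52.7 CPM in BMEL WT, changed by 1.04 ± 0.21. Pfkl, Aldoa and Ldha rose by 0.71 to 0.90. Pfkfb3 fell, from 13.5, 17.0 and 9.36 CPM to 5.72, 6.98 and 7.17 CPM (−1.04 ± 0.25). Ldhb, the heart lactate dehydrogenase, had 1.64, 0.585 and 0.592 CPM in BMEL WT and 0 counts in all 3 RasHIGH cultures, at least 6.52-fold lower against the limit of 3 counts per library. Car12, a second membrane carbonic anhydrase, had 6.49, 3.20 and 2.15 CPM in BMEL WT and 0.265, 0.0431 and 0.0902 CPM in RasHIGH, where the libraries held 1 to 7 counts. Ldhb and Car12 entered the test only through their BMEL WT counts, and both are among the 3 members called lower. Of the 12 hypoxia response members with at least 10 counts in each RasHIGH culture, 11 were highest in the first one. So were 10 of the 21 such glycolysis members. The first RasHIGH culture also had the highest sum of its group for the 10 listed dissociation stress genes, which include Fos, Jun, Egr1 and Atf3. It held 1898 CPM against 366 and 710.5 CPM. In RasLOW, replicate 2 had the highest sum, 1502 CPM against 559 and 556 CPM. Yet it was the highest of its group for only 4 of 12 hypoxia response and 4 of 21 glycolysis members with such counts, among them Ndrg1, Ero1l, Ddit4, Aldoc and Eno2. Replicate 1, with a stress gene sum of 559 CPM, was the highest for 7 of the 12 and 16 of the 21. What raised the listed genes in culture, and its part in the culture values, was not tested.

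Between RasHIGH and RasLOW, 0 of 33 tested members passed, where 0.0752% of all 11962 genes did, 0.0167% downward. At an unadjusted p under 0.05 there were 4 members, and DESeq2 called 3 (Pfkfb4, Hif1a and Epas1). The shares of all genes under these settings are not given, so these counts cannot be set against a background. Log2 fold changes were positive for 30 of 33 members (median 0.35, −0.03 over all genes). The 3 largest were Ndrg1 at 1.63 ± 0.76 (adjusted p = 0.567), Aldoc at 1.61 ± 0.89 and Epas1 at 1.53 ± 0.39 (adjusted p = 0.225). The groups did not overlap for 4 members, all higher in RasHIGH, while 15.7% of all genes did not overlap, 7.87% upward and 7.86% downward.

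Between the tumour sites, few members differed in tumour cells. Liver tumour cells were higher for 3 of 36 tested members and lower for 1, where 3.2% of all 13074 genes passed, 1.33% upward and 1.87% downward. Eno2 was higher in the liver (0.92 ± 0.20, adjusted p = 0.0375), as were P4ha2 (0.81 ± 0.14, adjusted p = 0.0199) and Hif1a (0.46 ± 0.10, adjusted p = 0.0371), and Pfkm was lower (−0.44 ± 0.10, adjusted p = 0.0463). In each of these the 4 liver libraries did not overlap the 4 peritoneal ones, and 8 members did not overlap in all, 7 of them higher in the liver, while 12.1% of all genes did not overlap, 6.5% upward and 5.64% downward. Positive changes were found for 31 of 36 members, with a median of 0.26 against −0.01 over all genes. With mouse as a block only Eno2 passed (adjusted p = 0.0224), and P4ha2 missed (adjusted p = 0.0606), as did Hif1a and Pfkm. With lane as a covariate 0 members passed. Leaving out 1 library gave 0 to 9 members: 9 without the liver library of mouse 1, 0 without that of mouse 2 or 4, 2 without that of mouse 3, and in the peritoneum 8 without mouse 1 and 1 without mouse 3 or 4. DESeq2 called 11. Hepatocyte genes summed to 11.98 to 51.3 CPM in liver and 1.34 to 10.9 CPM in peritoneal tumour cells, and their part in these differences was not tested. The largest fitted values were Slc2a3 (−1.87 ± 0.84) and Slc16a3 (adjusted p = 0.409), neither called, and the highest peritoneal library of both was that of mouse 1.

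In stroma, most glycolysis members passed between the sites. Of 39 members, 22 were higher and 5 lower in liver stroma than in peritoneal stroma, where 33.4% of all 14755 genes passed and 14.9% passed upward. Of the 24 glycolysis genes 16 were higher and 1 lower, with a median change of 0.45 against 0.02 over all genes. With mouse as a block 31 members passed, adding Hk2, Ldha, Ankrd37 and Ddit4. The 2 stromas differed in make-up. Fibroblast genes summed to 3082 to 6425 CPM in liver and 45051 to 67029 CPM in peritoneal stroma. The epithelial genes, high in tumour cells, summed to 1269 to 1621 CPM in liver and 698 to 1144 CPM in peritoneal stroma. Hepatocyte genes summed to 46.8 to 282 CPM and 5.47 to 15.4 CPM, and dissociation genes to 6874 to 8827 CPM and 10847 to 13678 CPM. Neutrophil genes summed to 3055 CPM in the peritoneal stroma of mouse 1 and 637 to 672 CPM in that of the other mice. The part of make-up, tumour cell RNA and dissociation in these differences was not tested. Aldoc differed most among glycolysis genes, at 54.0, 44.0, 52.9 and 51.1 CPM in liver and 17.0, 23.3, 23.6 and 25.7 CPM in peritoneal stroma (1.13 ± 0.13, adjusted p = 0.000169). Egln3 was at 228, 226, 257 and 230.2 CPM and 95.1, 98.7, 80.9 and 148 CPM (1.11 ± 0.17), and Ero1l at 623, 571, 634 and 602 CPM and 268, 271, 215 and 396 CPM (1.03 ± 0.17). Neither overlapped. Slc2a1, Gpi1, Pfkp, Pgk1, Bnip3 and Ndrg1 were higher by 0.62 to 0.68. Lower in liver stroma were P4ha2, at 67.6, 60.9, 51.3 and 52.04 CPM against 96.8, 125, 90.7 and 110.2 CPM (−0.91 ± 0.13), and Adm, the vasodilator adrenomedullin, at 19.5, 18.5, 13.8 and 13.4 CPM against 48.6, 29.9, 16.01 and 36.3 CPM (−1.05 ± 0.29), with overlap. Car12 (−0.69 ± 0.16), Epas1 (−0.71 ± 0.19) and Pfkm (−0.45 ± 0.09) were lower too.

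**Figure D4:**
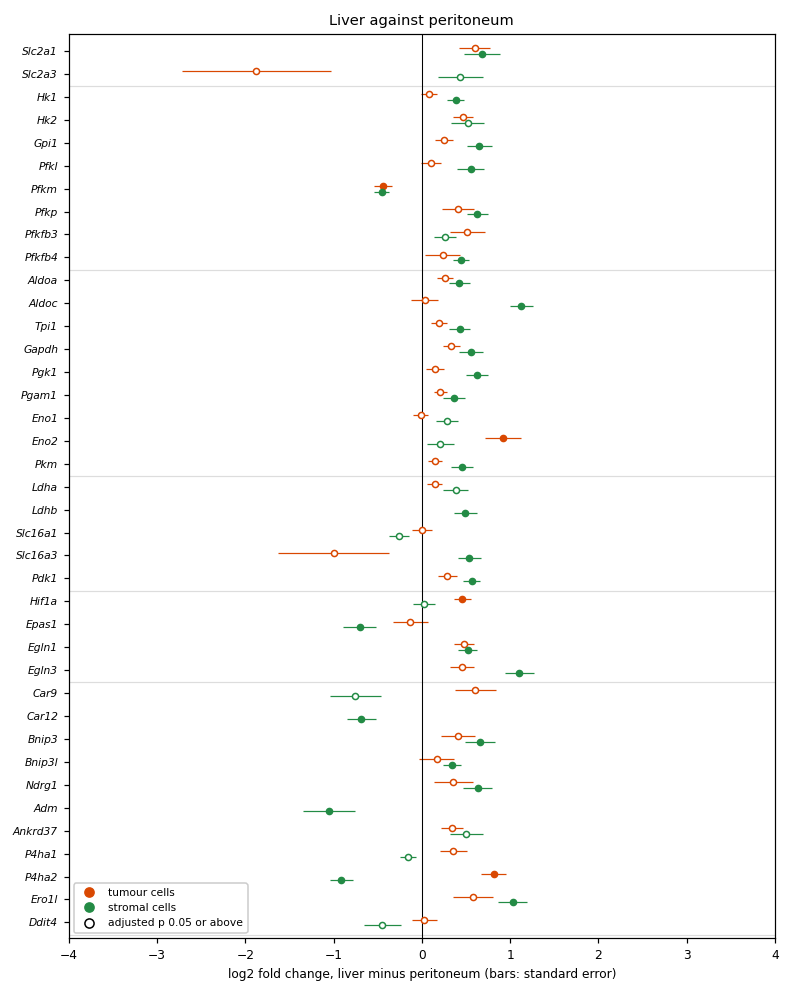
Log2 fold change of each member in liver against peritoneum, in tumour cells (orange) and in stromal cells (green), with bars for the standard error and open symbols for an adjusted p of 0.05 or above. Rows without a point are members not tested or averaging under 0.144 CPM in a group. Of the 24 glycolysis genes 16 are filled right of 0 in stroma, tumour points lie nearer 0, and P4ha2 lies on opposite sides of 0.

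Whether the site difference itself differed between tumour cells and stroma was tested by an interaction term over the 16 libraries, and 4 of 39 members passed, 2 in each direction, where 14.3% of all 15331 genes did, 6.79% upward and 7.5% downward. P4ha2 was higher in the liver in tumour cells and lower in stroma (1.65 ± 0.21, adjusted p = 0.000123). Aldoc differed between the stromas but hardly between the tumours (−1.17 ± 0.22, adjusted p = 0.00211). Car9 had 8.71, 5.68, 7.69 and 8.37 CPM in liver and 15.1, 14.6, 5.72 and 14.3 CPM in peritoneal stroma and a fitted value in the other direction in tumour cells (1.28 ± 0.40, adjusted p = 0.0426). Pgk1 had 1060.3, 880.0, 1089 and 1032 CPM in liver and 611, 550.2, 610.0 and 778 CPM in peritoneal stroma (−0.55 ± 0.17, adjusted p = 0.037). The median over all genes was −0.12 in this fit, so that values near that size are near the background. With mouse as a block Car9 missed (adjusted p = 0.0673) and Eno1 passed (adjusted p = 0.0413). P4ha2 and Aldoc passed with any 1 library left out, Pgk1 in 5 and Car9 in 3 of the 16 cases. The count fell to 2 without the liver tumour library of mouse 2 or 4, the peritoneal tumour library of mouse 3, the liver stroma library of mouse 1, 3 or 4, or the peritoneal stroma library of mouse 2.

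Tumour cells and stroma differed in which gene of a step was higher. In the liver, 21 of 39 members were higher and 11 lower in tumour cells than in stroma. There 77.8% of all 14620 genes passed, 38.4% upward and 39.4% downward. In the peritoneum 20 were higher and 11 lower, where 76.6% of all 14584 genes passed, 39.5% upward and 37.1% downward. Counted in either direction, the share of members called was thus close to that of all genes at each site. By direction it was not, with a larger share of members higher and a smaller share lower than among all genes. Higher in tumour cells at both sites were 18 members, among them Pdk1 (1.48 ± 0.10 in the liver and 1.88 ± 0.12 in the peritoneum), Pgk1 (1.33 ± 0.11 and 1.93 ± 0.13), Slc16a1 (1.61 ± 0.13 and 1.48 ± 0.10), Hk1 (1.31 ± 0.10 and 1.74 ± 0.10) and Pfkm (1.41 ± 0.10 and 1.52 ± 0.09). Ndrg1, at 716, 607, 806 and 692 CPM in liver and 459.9, 383, 341 and 578 CPM in peritoneal stroma, was higher in tumour cells too (1.57 ± 0.18 and 1.96 ± 0.23), as were Bnip3 (1.16 ± 0.18 and 1.54 ± 0.21) and Egln3 (1.34 ± 0.13 and 2.12 ± 0.19). In all of these every tumour library exceeded every stromal library of its site. Gapdh, Tpi1, Pgam1 and Pkm were higher by 0.76 to 1.002 in the liver and 1.12 to 1.36 in the peritoneum, Pfkl by 0.70 ± 0.13 and 1.28 ± 0.15, and Ero1l by 0.62 ± 0.13 and 1.20 ± 0.27. In the peritoneum another scaling (DESeq2) moved the median of all genes by 0.14 downward, which is small beside these values. The call of Slc2a1 in the peritoneum (0.60 ± 0.21) was lost with mouse as a block (adjusted p = 0.0504), while Eno2 and Ddit4 were gained, and in the liver Slc2a1 and Gpi1 were gained.

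Lower in tumour cells at both sites were 9 members, led by 5 that were nearly absent from them. Of these, Slc2a3, Ldhb, Car12 and Adm entered the test only through their counts in stroma. Their calls, counted among the 11 lower members at each site, therefore add nothing to the levels given here. Slc16a3 stood at 519.6, 358, 488 and 446 CPM in liver and 289, 273, 293 and 353 CPM in peritoneal stroma, against the few CPM in tumour cells given above. Slc2a3, the high-affinity glucose transporter of leukocytes and neurons, had 116, 62.9, 77.5 and 57.3 CPM in liver and 74.2, 57.6, 35.3 and 57.1 CPM in peritoneal stroma. Tumour cells held 0.137, 0.0565, 0.273 and 0.352 CPM and 2.15, 0.272, 0.211 and 0.332 CPM. Ldhb had 23.8, 25.4, 32.2 and 26.7 CPM and 17.6, 15.5, 19.3 and 21.9 CPM in stroma and at most 0.936 CPM in tumour cells. Car12 had 18.7, 20.03, 16.2 and 15.9 CPM and 25.2, 36.7, 21.8 and 27.0 CPM in stroma and at most 0.443 CPM in tumour cells. Adm was at most 1.498 CPM in tumour cells. For Slc16a3, Slc2a3, Ldhb and Adm the highest tumour cell library was the peritoneal one of mouse 1, which also held the most leukocyte and fibroblast RNA, and the part of stromal RNA in these values was not tested. The regulators of phosphofructokinase and its platelet form were present in both compartments and higher in stroma. Pfkfb3 had 139, 152, 182 and 157 CPM in liver and 139, 104, 116 and 147 CPM in peritoneal stroma (−2.14 ± 0.19 and −2.26 ± 0.15), Pfkp 316, 269, 288 and 321 CPM and 161, 206, 167 and 212 CPM (−1.63 ± 0.13 and −1.28 ± 0.18), and Pfkfb4 46.5, 57.1, 55.3 and 51.1 CPM and 34.6, 39.3, 40.0 and 35.5 CPM (−1.55 ± 0.13 and −1.20 ± 0.20). Epas1 had 96.1, 142, 76.1 and 81.3 CPM and 134, 176, 161 and 154 CPM (−2.27 ± 0.19 and −2.72 ± 0.22). Aldoc (−1.16 ± 0.12) and Ankrd37 (−0.74 ± 0.11) were called lower in the liver, and Car9 in the peritoneum (−1.48 ± 0.32). Aldoc and Car9 are among the 4 genes that passed the interaction test, and Ankrd37 is not. P4ha2 was higher in tumour cells in the liver (1.14 ± 0.16) and lower in the peritoneum (−0.45 ± 0.11).

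Scaled by exon length, each compartment had its own mix of isoforms. The length joined all annotated exons of a gene, such as 8532 bases for Hk1 and 5969 for Hk2, whichever transcripts were present. The size of each share is therefore approximate. Slc16a3 was a median of 86.0% of the 2 monocarboxylate transporters in liver stroma and 77.5% in peritoneal stroma, and 0.6% in tumour cells of either site. Hk2 was 75.0% of the hexokinases in liver stroma, 52.8% in liver tumour cells and 46.0% in peritoneal tumour cells, and 43.2% and 38.6% in RasLOW and RasHIGH cultures. Pfkp was 28.6% of the phosphofructokinases in liver stroma and 7.3% in liver tumour cells. Slc2a1 made up 94.1% or more of the 2 glucose transporters by the median of each group. Hif1a made up 94.7% or more of the 2 alpha subunits by the median of each tumour cell group, and 75.2% in peritoneal stroma. These shares are descriptions.

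**Figure D5:**
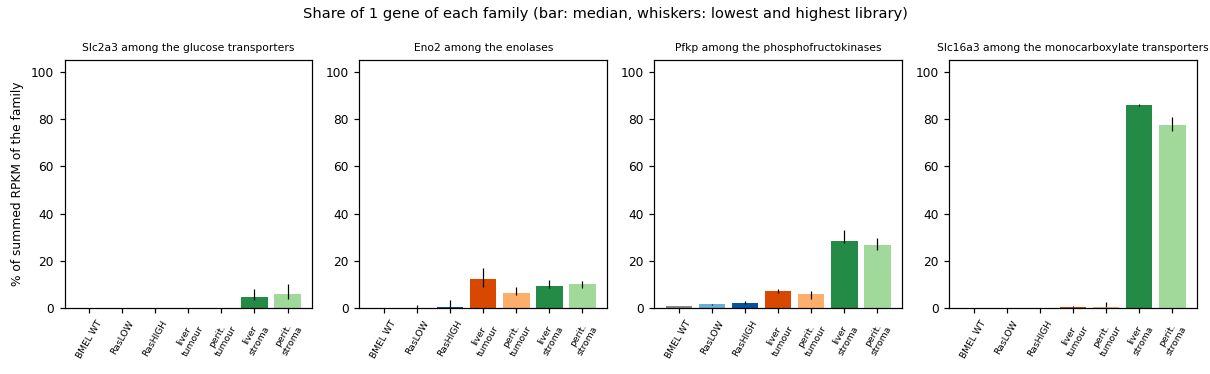
Share of Slc2a3, Eno2, Pfkp and Slc16a3 in the summed RPKM of their families, in percent, for the 7 groups. Bars are medians and whiskers the lowest and highest library. The Slc16a3 bar is 86.0% in liver stroma and 0.6% in tumour cells, and the Eno2 bar is highest in liver tumour cells at 12.3%.

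The rest of the pathway was read from lists of genes outside the 39. Of 23 tested genes in a list of other hypoxia responders, 20 were higher and 1 lower in liver tumour cells than in Ras cultures, with 18 and 1 in the peritoneum and medians of 1.96 and 1.59. Of all genes, 26.7% passed upward in the liver and 24.6% in the peritoneum. This list overlaps no member. Pgf, a placental growth factor of the vessel-forming family, rose from 18.9 ± 7.88 CPM (mean ± SD, n = 6) to 205 ± 31.4 CPM in the liver and 127 ± 23.6 CPM in the peritoneum (n = 4 each, 3.47 ± 0.28 and 2.80 ± 0.29). Selenbp1 changed by 3.38 ± 0.23 and 2.89 ± 0.25.

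Pentose phosphate genes and part of the TCA cycle genes were lower in tumour cells, where 26.7% of all genes passed downward in the liver and 24.1% in the peritoneum. Of 7 pentose phosphate genes 6 were lower and 0 higher at each site, with medians of −0.82 and −0.60. G6pdx, which opens the branch, fell from 106 ± 17.0 CPM to 51.5 ± 6.67 CPM in the liver (−1.04 ± 0.14) and 51.2 ± 3.95 CPM in the peritoneum (−1.04 ± 0.13). Of 16 TCA cycle genes 11 were lower in the liver and 8 in the peritoneum, with 0 called higher at either site, by edgeR at an adjusted p under 0.05. Cs, citrate synthase, fell from 385 ± 81.0 CPM to 211 ± 17.2 CPM and 227 ± 43.9 CPM (−0.86 ± 0.15 and −0.74 ± 0.18), and Suclg2 changed by −1.33 ± 0.11 and −0.80 ± 0.11. In the other list of glycolysis and pyruvate genes 6 of 24 tested were higher and 9 lower in the liver, and 4 and 7 of 22 in the peritoneum, shares near or below those of all genes upward and not far above them downward. Pck2, the mitochondrial enzyme that makes phosphoenolpyruvate, fell from 113 ± 43.3 CPM to 27.5 ± 1.85 CPM and 33.2 ± 2.87 CPM (−2.02 ± 0.28 and −1.73 ± 0.28). Hk3, Pdk4 and Galm were called in the liver at levels of 2.12 CPM or less. Of 10 tested genes of the Atf4 and stress response list, 4 were higher and 4 lower in the liver, and 4 and 5 in the peritoneum. Higher at both sites were Hspa5, Vldlr, Xbp1 and Atf3, and lower at both were Asns, Chac1, Trib3 and Sesn2. Atf4 itself was called lower in the peritoneum (−0.45 ± 0.12) and not in the liver (−0.13 ± 0.12). Asns, Chac1 and Trib3 are known targets of Atf4, and Asns went from 231 ± 58.0 CPM to 27.9 ± 7.85 CPM and 18.9 ± 5.90 CPM (−3.03 ± 0.23 and −3.58 ± 0.26). Atf3, also an immediate early gene, rose (3.68 ± 0.50 and 4.06 ± 0.51). In RasHIGH cultures Trib3 (4.41 ± 0.58), Chac1 (3.11 ± 0.39) and Asns (1.70 ± 0.19) were higher than in BMEL WT. Of 10 tested HIF pathway regulators 4 were higher and 1 lower in the liver, and 2 and 0 in the peritoneum, against 26.7% and 24.6% of all genes upward, so that the peritoneal share was below the background. They were led by Cited2 (1.23 ± 0.21 and 0.83 ± 0.18), a transcriptional co-regulator that competes with the hypoxia factors, and Arnt, the beta subunit (0.71 ± 0.13 and 0.54 ± 0.12).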

How the data were processed

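RNA-seq libraries were made from poly(A) RNA with the NuGEN Universal Plus kit. The authors deposited raw read counts per gene in 1 table of 24984 genes and 25 libraries. The study's methods name TopHat2 and the mm9 genome, while the submitters' processing notes name FastQC, Bowtie 0.12.2 and the builds mm8 and mm10. The counting program and its strand setting are not given in the sources used here, so reads of overlapping or near-identical genes cannot be told apart. Groups came from the sample labels. The members and all gene lists were chosen with earlier results of these data known.

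Comparisons used edgeR 4.0.16 (quasi-likelihood F-test, TMM, filterByExpr with a minimum count of 10) on the libraries of the groups compared. p-values were adjusted by Benjamini-Hochberg over all genes tested, and called means an adjusted p under 0.05. Standard errors are the fold change over the root of F. The fits were tested on simulated counts first. RPKM for shares within a gene family used mm9 exon lengths, with all annotated exons of a gene joined. These can exceed the transcripts present, so the shares are approximate. Per-library values were given for members called with a log2 fold change of at least 1 and the 3 largest of each comparison, and promoters for the 5 members with the highest mean change in tumour cells. Alternatives were DESeq2 1.42.0, other scaling and filters, the study's own cut-offs, lane, a replicate block and leaving out each library. Mouse numbers mark the same animal, so the block by mouse is a pairing. The study's methods call the samples biologically independent.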

Additional observations from a re-analysis of the deposited data

Results flagged for a closer look

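In each of the 4 groups of 4 sorted libraries, a member was listed where 1 library lay far from the other 3. This held for 14 of 156 cases, and chance gives about 1 in 20. The peritoneal tumour cell library of mouse 1 accounted for 5: Slc2a3 at 2.15 CPM (0.211 to 0.332 CPM in the other mice), Ldhb at 0.936 CPM (0 to 0.0384 CPM), Slc16a3 at 7.21 CPM (0.812 to 1.52 CPM), Adm at 1.498 CPM (0.0960 to 0.245 CPM) and Ndrg1 at 2329 CPM (1306 to 1475 CPM). This library also held the highest sums of leukocyte, neutrophil and fibroblast genes, whose part in these values was not tested. The peritoneal stroma of mouse 4 accounted for 4, with Hk1 at 215 CPM (168 to 176 CPM), Gpi1 at 1037 CPM (721 to 734 CPM), Pdk1 at 75.3 CPM (58.6 to 59.9 CPM) and Ankrd37 at 16.7 CPM (9.41 to 10.3 CPM), all above the other mice. That stroma also held the highest epithelial gene sum of its group, 1144 CPM against 698 to 894 CPM. The part of tumour cell RNA in these values was not tested. Car9 was low in the peritoneal tumour cells of mouse 4 at 2.99 CPM (4.59 to 4.80 CPM) and in the peritoneal stroma of mouse 3 at 5.72 CPM (14.3 to 15.1 CPM). In liver stroma, Pkm was low in mouse 2 at 2305 CPM (2761 to 2771 CPM), Egln3 high in mouse 3 at 257 CPM (226 to 230.2 CPM) and P4ha1 low in mouse 4 at 265 CPM (299 to 304 CPM).

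The site difference in tumour cells differed from that in stroma by the interaction term for P4ha2 (log2 difference 1.65), Car9 (1.28), Aldoc (−1.17) and Pgk1 (−0.55), by edgeR with Benjamini-Hochberg adjustment.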

How the results depend on the processing

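Of the values recomputed, 5239 kept their side of the threshold, 153 newly passed it and 321 no longer passed. A turn of direction was looked for only where a value passed in the main or the other setting, and 1 was found. Hif1a in peritoneal tumour cells was 0.46 higher against RasLOW cultures alone. Counts of called members held within 1.5 times under all other settings. Under the study's own cut-offs they were 4 for RasLOW and 11 for RasHIGH against BMEL WT (7 and 19 as reported), 1 for RasHIGH against RasLOW (0), 1 between tumour sites (4), 4 between stromas (27) and 20 for tumour cells against stroma in the liver (32). With all 25 libraries in one fit they were 13 for RasLOW, 4 for RasHIGH against RasLOW, 2 between tumour sites, 17 between stromas and 1 for the interaction (4). Lane 4 cultures alone, with 1 BMEL WT library assumed to vary like the Ras cultures, gave 0 for RasLOW and 0 for RasHIGH, and lane as a covariate 0 between tumour sites. DESeq2 called 3 for RasHIGH against RasLOW and 11 between tumour sites. The shares of all genes called in these other fits are not given here. The replicate block gave 3 for RasLOW, 15 for RasHIGH and 1 between tumour sites. Mice pair by animal, while no label says that cultures with the same number are a pair. Samples with the same number correlated at −0.68 to 0.34 between RasHIGH and RasLOW. The titles give adjacent AL numbers to RasHIGH replicate 1 and RasLOW replicate 2, and to RasHIGH replicate 2 and RasLOW replicate 3. What these AL numbers mark is not stated, and a block by them was not tested.

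Leaving out 1 library gave 1 to 14 called members for RasLOW, 9 to 21 for RasHIGH, 0 to 0 between them, 29 to 33 for liver and 27 to 30 for peritoneal tumour cells against cultures, 0 to 9 between tumour sites, 19 to 29 between stromas, 31 to 34 and 29 to 34 for tumour cells against stroma in liver and peritoneum, and 2 to 5 for the interaction. The libraries that moved RasLOW to 14 or to 3 or less were RasLOW replicate 2 (14), RasLOW replicates 1 and 3 (3 each) and BMEL WT replicates 1, 2 and 3 (2, 1 and 1). Those that moved RasHIGH were BMEL WT replicates 1, 2 and 3 (10, 9 and 12). Between tumour sites they were liver mice 1, 2, 3 and 4 (9, 0, 2 and 0) and peritoneal mice 1, 3 and 4 (8, 1 and 1). Depth limits Slc2a3, Slc16a3 and Adm in cultures, at 0 to 3 counts a library, and Ldhb and Car12 in RasHIGH cultures, at 0 to 7.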
